A study of Mus musculus with 12 samples.

Results

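The genes described here handle lipids in macrophages: they export cholesterol, take up, store and release fatty acids, or burn them in mitochondria and peroxisomes. The list names 34 genes, chosen for these functions with earlier results of these data known. Of them 32 could be read out of the 18193 genes on the arrays. Nr1h2, the second LXR receptor gene, and Soat1, which esterifies cholesterol, have no probeset that carries their symbol alone, so no value is given for them. For a gene with several probesets the brightest one was taken, by its mean over 11 arrays. All 32 had a mean at or above the floor of 3.83, the median of all log2 values on those 11 arrays. Ppargc1b was above the floor on 7 of the 11 arrays, Angptl4 on 9 and the other 30 genes on all 11.

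The cells were peritoneal macrophages of mice injected with thioglycollate, an irritant that draws monocytes into the peritoneum. They came from mice lacking both IRAK1 and IRAK2 (the double knockout), from mice lacking IRAK2 alone, and from wild-type mice, and were given MALP-2 at 100 ng/ml, a lipopeptide sensed by TLR2 with TLR6. Each genotype was hybridised once without MALP-2 (0 h) and once after 2, 4 and 8 h, which makes 12 arrays with 1 array per group. The sources used here do not state the strain, age or number of the mice behind each array. IRAK1 and IRAK2 are kinases that pass the signal of Toll-like receptors on to NF-kB and MAP kinases. The comparisons ask how the lipid genes answer to MALP-2, and how their levels differ when 1 or both kinases are missing.

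As background, oxysterols activate the LXR receptors, which pair with RXR and switch on genes for cholesterol export such as Abca1, Abcg1 and Apoe. Fatty acids activate the PPAR receptors, which also pair with RXR and switch on genes for fatty acid uptake, storage and oxidation such as Cd36, Fabp4, Plin2 and Cpt1a. Macrophages use both receptor systems when they digest dead cells and lipoproteins, and Toll-like receptor signalling is known to restrain parts of both.

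The receptors bind repeats of the hexamer AGGTCA, LXR with RXR preferring a spacing of 4 bases (DR4) and PPAR with RXR a spacing of 1 base (DR1). RefSeq promoter windows (build GRCm38.p6, 250 bases before to 50 after a start) were found for 27 of the 34 genes, 34 windows in all. Both strands were searched for a DR4 written NGGTNANNNNNGGTNA, a DR1 written NGGNCANAGGNCA, the hexamer itself and an NF-kB site written GGGANTTTCC. A DR1 can hold the hexamer, so these matches may overlap. The DR4 was found in 1 member gene, Abca1, and in 0.718% of all 32851 windows, and the DR1 in 1 member gene, Rxra, and in 0.798% of all windows. The hexamer was found in 8 member genes, in 9 of 34 member windows against 16.3% of all windows. The NF-kB letters were found in 0 member windows and in 0.411% of all windows. The 4 windows below belong to genes on which the results turn, Abca1 as the exporter that rose with MALP-2, Rxra, Cpt1a and Plin2 as genes that fell with it. Capitals mark the DR4 in Abca1, at positions -67 to -52 from the start (chr4:53159846-53160145, minus strand). They mark the DR1 in 1 of the Rxra windows (chr2:27709042-27709341, plus strand). In Cpt1a (chr19:3323051-3323350, plus strand) and Plin2 (chr4:86670010-86670309, minus strand) they mark the hexamer, read on the opposite strand. A match describes the letters and shows no binding.
Abca1: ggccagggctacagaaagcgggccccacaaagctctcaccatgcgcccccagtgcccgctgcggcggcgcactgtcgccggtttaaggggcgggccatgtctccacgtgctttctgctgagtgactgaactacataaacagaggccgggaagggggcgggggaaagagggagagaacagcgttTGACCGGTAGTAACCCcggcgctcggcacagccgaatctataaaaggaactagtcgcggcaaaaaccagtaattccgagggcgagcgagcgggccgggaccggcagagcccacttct
Rxra: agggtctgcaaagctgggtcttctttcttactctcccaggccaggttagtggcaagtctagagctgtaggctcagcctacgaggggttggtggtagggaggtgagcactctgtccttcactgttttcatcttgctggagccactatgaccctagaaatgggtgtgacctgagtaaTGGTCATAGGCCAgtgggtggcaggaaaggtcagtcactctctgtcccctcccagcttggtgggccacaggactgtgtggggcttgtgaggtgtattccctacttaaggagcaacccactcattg
Cpt1a: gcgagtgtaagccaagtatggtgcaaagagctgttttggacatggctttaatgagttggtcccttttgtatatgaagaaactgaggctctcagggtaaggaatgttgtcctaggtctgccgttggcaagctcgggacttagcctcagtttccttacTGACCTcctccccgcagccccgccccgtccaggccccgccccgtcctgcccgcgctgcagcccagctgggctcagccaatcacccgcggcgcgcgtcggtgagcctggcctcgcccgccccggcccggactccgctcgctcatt
Plin2: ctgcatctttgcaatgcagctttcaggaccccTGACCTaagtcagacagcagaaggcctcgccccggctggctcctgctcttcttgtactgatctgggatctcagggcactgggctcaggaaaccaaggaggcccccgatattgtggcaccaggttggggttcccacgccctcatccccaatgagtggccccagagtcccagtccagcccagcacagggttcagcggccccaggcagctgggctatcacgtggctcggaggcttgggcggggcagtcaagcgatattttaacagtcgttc

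The arrays were checked first. The double-knockout 0 h array correlated with the others at 0.764 to 0.804, whereas the other 11 correlated with each other at 0.954 to 0.993. Its Irak1 probeset read 10.84, against 8.11 to 8.59 on the other 11 arrays, those of the same genotype included. The macrophage markers Cd68 and Lyz2 read 6.40 and 10.93 on it, against 11.48 to 11.60 and 12.80 to 13.0 on the stimulated double-knockout arrays. It enters no comparison, and so the double knockout has no MALP-2 response here. Signal from the 5′ end of transcripts was weaker after MALP-2 in the double knockout: the 5′ actin probeset minus the 3′ one read -4.25, -4.68 and -3.87 log2 at 2, 4 and 8 h, against -3.72 to -3.18 on the 8 arrays of the other genotypes. For Gapdh the gap was wider, at -5.29, -5.9 and -4.36, against -3.84 to -3.42 on those 8 arrays. The part of this difference in the genotype results was not tested. The Irak2 probeset read 5.19, 4.61 and 5.09 in the stimulated double knockout, 5.51, 4.71 and 4.65 in the IRAK2 knockout, against 6.69, 6.29 and 5.77 in wild type. The Irak1 probeset read 8.25, 8.31 and 8.11 in the double knockout and 8.48, 8.46 and 8.48 in wild type, and the sources used here do not state whether its probes lie in the deleted part. Of 8 macrophage markers 7 were above the floor on all 11 arrays, and Itgam on 10. Fat cells express many of the lipid genes, but 4 of 5 fat cell markers read, Adipoq among them, were under the floor on all 11 arrays, and the summed level of the 5 was 5.61 to 5.68 log2 in the stimulated double knockout, 5.72 to 5.74 in the IRAK2 knockout, against 5.66 to 5.78 in wild type. Summed neutrophil markers read 9.26 to 9.53 in the stimulated double knockout, 10.55 to 10.90 in the IRAK2 knockout, against 10.73 to 11.10 in wild type, mostly from S100a8, with Mpo, Elane and Ngp under the floor on all 11 arrays. Camp was above the floor on all 11 arrays and lower in the double knockout than in wild type (-1.18 log2, adjusted p 9.71e-04, limma). S100a8 was called lower as well (-1.55, adjusted p 1.85e-04), and S100a9 was not called (-0.11, adjusted p 0.546). Summed eosinophil and mast cell markers read 7.94 to 8.24 in the double knockout, 6.89 to 7.54 in the IRAK2 knockout, against 6.82 to 7.42 in wild type, mostly from Siglecf, with Prg2 and Epx under the floor on all 11 arrays. The mast cell gene Cpa3 was above the floor on all 11 arrays and higher in the double knockout than in wild type (1.20 log2, adjusted p 0.00218, limma). Siglecf was called higher too (1.19, adjusted p 5.69e-04). Of the other mast cell genes, Tpsb2 was not called (0.14, adjusted p 0.469) and Mcpt4 was under the floor on all 11 arrays. The summed macrophage markers read 14.44 to 14.47 in the double knockout, 14.56 to 14.66 in the IRAK2 knockout, against 14.54 to 14.60 in wild type, mostly from Csf1r and Lyz2. Taken singly, limma called Cd14 (-1.85 log2), Itgam (-0.78), Adgre1 (-0.69) and Fcgr1 (-0.56) lower in the double knockout than in wild type. Mertk was called higher (0.54), and Csf1r, Cd68 and Lyz2 were not called. The B cell markers summed to 5.56 to 5.72 in the double knockout, 5.71 to 5.98 in the IRAK2 knockout, against 5.97 to 6.36 in wild type, with Pax5 under the floor throughout and Cd79a above it on 10 of the 11 arrays. Cd79a was called lower in the double knockout than in wild type (-0.59 log2, adjusted p 0.00402, limma). Ms4a1 was not called (-0.6, adjusted p 0.0866). The T and NK cell markers summed to 5.94 to 6.25 in the double knockout, 5.93 to 5.95 in the IRAK2 knockout, against 5.96 to 6.0 in wild type, with Cd3d, Cd8a and Ncr1 under the floor and Cd4 above it on 9 of the 11 arrays. Cd3e, above it on 3 of the 11, was not called between the double knockout and wild type (0.43 log2, adjusted p 0.143, limma). It was higher in the double knockout than in the IRAK2 knockout (0.72, adjusted p 0.0268). Cd4 was called in neither comparison. The mesothelial and stromal markers summed to 11.11 to 11.25 in the double knockout, 11.01 to 11.22 in the IRAK2 knockout, against 10.93 to 11.17 in wild type, with Msln and Krt19 under the floor. The stromal genes Col1a1, Col3a1, Dcn and Pdgfra were above it on all 11 arrays. Of these 4 only Dcn was called between the double knockout and wild type (-0.63 log2, adjusted p 0.0429, limma). The part of these cells in the genotype results was not tested. In bulk RNA fewer cells of a type and less RNA per cell cannot be told apart.

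Most of the lipid genes were lower after MALP-2 than at 0 h in IRAK2-knockout and wild-type macrophages, and 3 were higher. No array without MALP-2 was made at 2, 4 or 8 h, so MALP-2 and time in culture cannot be told apart. A rise, a fall or a response to MALP-2 here means the difference from 0 h. The fatty acid binding protein gene Fabp4, the cholesterol exporter gene Abcg1, the receptor gene Pparg and the mitochondrial gatekeeper gene Cpt1a fell most, and the 4 genes for storing and releasing neutral lipid fell too. The second cholesterol exporter gene, Abca1, and the LXR gene Nr1h3 rose instead. With limma on the 8 arrays of these 2 genotypes, 21 of 32 members were lower (28.2% of all 10799 genes tested were called lower) and 3 were higher (18.9% of all genes). The median difference over the members was -0.51 log2, against -0.06 over all genes tested. With 1 array per group, a p-value here reflects how alike the response was in the 2 genotypes; it says nothing of the spread between mice. The stimulated arrays lay wholly below both 0 h arrays for 18 members (24.5% of all genes) and wholly above for 2, Abca1 and Nr1h3 (16.0%).

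**Figure D1:**
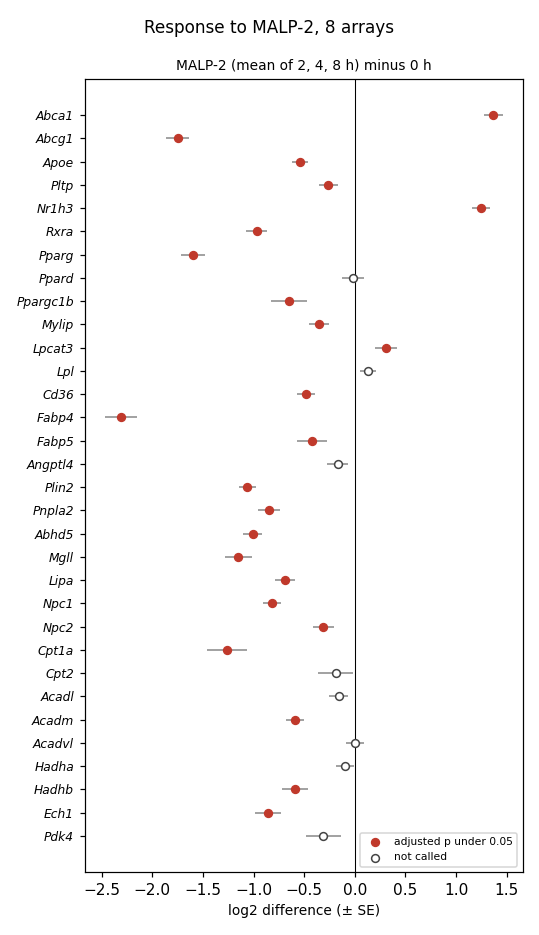
Mean log2 difference of the 2, 4 and 8 h arrays from the 0 h arrays over IRAK2-knockout and wild-type macrophages, with its SE from limma (8 arrays), for the 32 lipid genes. Filled points have an adjusted p under 0.05: 21 lie left of 0 and 3, Abca1, Nr1h3 and Lpcat3, right of it.

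Among the receptors, Nr1h3, which encodes LXR alpha, read 4.62, 5.88, 6.19 and 5.58 log2 at 0, 2, 4 and 8 h in the IRAK2 knockout, against 4.88, 6.08, 6.26 and 5.97 in wild type. Every stimulated array of these genotypes was above both 0 h arrays, by 1.25 log2 on average (SE 0.09, adjusted p 3.66e-05, limma). Pparg, the receptor that drives lipid uptake in macrophages, read 7.48, 5.58, 5.96 and 5.52 in the IRAK2 knockout, against 7.35, 5.67, 6.34 and 5.81 in wild type. It fell by 1.60 log2 (SE 0.12, adjusted p 3.00e-05). Rxra, the shared partner of LXR and PPAR, read 8.33, 7.08, 7.38 and 7.66 in the IRAK2 knockout, against 8.57, 7.06, 7.80 and 7.88 in wild type, lowest at 2 h in both. It fell by 0.97 log2 (SE 0.10, adjusted p 1.83e-04), and by 0.32 with its probesets averaged (adjusted p 0.00673). Ppard, a PPAR expressed in most tissues, read 4.78, 4.54, 5.01 and 5.19 in the IRAK2 knockout, against 5.33, 4.87, 5.08 and 5.51 in wild type, with stimulated values on both sides of 0 h. Its mean difference was -0.02 log2 (adjusted p 0.885). The coactivator gene Ppargc1b, which raises mitochondrial gene expression, read 4.53, 3.42, 3.76 and 4.74 in the IRAK2 knockout, against 4.48, 3.42, 3.92 and 3.90 in wild type. At 2 and 4 h it was near or under the floor, and at 8 h the IRAK2 knockout was above its own 0 h array. Its mean difference was -0.65 log2 (SE 0.18, adjusted p 0.0182), and -0.42 without the 2 h arrays, where it was not called (adjusted p 0.106).

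The exporters of cholesterol parted. Abca1, which loads cholesterol onto apolipoprotein A-I, read 9.01, 10.45, 10.17 and 10.43 in the IRAK2 knockout, against 9.08, 10.61, 10.44 and 10.39 in wild type. It rose by 1.37 log2 (2.59-fold, SE 0.09, adjusted p 2.40e-05), in both genotypes at all 3 times. Abcg1, which loads cholesterol onto HDL, read 10.67, 8.97, 8.65 and 9.53 in the IRAK2 knockout, against 10.87, 8.79, 8.87 and 9.34 in wild type. It fell by 1.75 log2 (3.36-fold lower, SE 0.11, adjusted p 1.89e-05), so that 2 exporters known as LXR targets moved in opposite directions. Apoe, the apolipoprotein that accepts cholesterol, read 9.82, 9.56, 9.51 and 8.81 in the IRAK2 knockout, against 10.01, 9.75, 9.56 and 9.01 in wild type, with the lowest value at 8 h in both. It fell by 0.54 log2 (SE 0.08, adjusted p 0.00126). The phospholipid transfer protein gene Pltp fell by 0.26 (adjusted p 0.0417). Of the remaining LXR targets, Mylip, a ubiquitin ligase for the LDL receptor, fell by 0.35 (adjusted p 0.0204), and Lpcat3, which builds polyunsaturated phospholipids, rose by 0.31 (adjusted p 0.0493).

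Of 5 genes of fatty acid uptake and binding 3 fell. Fabp4, a PPAR gamma target that carries fatty acids in the cytosol, read 11.51, 10.19, 9.02 and 9.29 in the IRAK2 knockout, against 12.02, 10.41, 8.85 and 8.94 in wild type. It fell by 2.31 log2 (4.97-fold lower, SE 0.16, adjusted p 2.55e-05), more than any other member. Cd36, a scavenger receptor for fatty acids and oxidised LDL, read 10.79, 10.49, 10.47 and 10.24 in the IRAK2 knockout, against 10.22, 9.85, 9.66 and 9.42 in wild type. It fell by 0.48 log2 (SE 0.09, adjusted p 0.00342), although the 3 stimulated arrays of the IRAK2 knockout lay above the 0 h array of wild type. Fabp5, the second fatty acid binding protein, fell by 0.42 (adjusted p 0.0489). Lpl, which frees fatty acids from lipoproteins, had a difference of 0.13 (adjusted p 0.234), and its inhibitor Angptl4, close to the floor, one of -0.17 (adjusted p 0.212).

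All 4 measured genes of lipid storage and lipolysis fell. Plin2, the coat protein of lipid droplets, read 11.82, 10.49, 10.79 and 11.17 in the IRAK2 knockout, against 11.95, 10.49, 10.88 and 11.17 in wild type. It was lowest at 2 h in both genotypes and fell by 1.06 log2 (SE 0.08, adjusted p 4.63e-05). The lipases of the droplet act in sequence: PNPLA2 opens triglycerides, ABHD5 activates it, and MGLL releases the last fatty acid. Pnpla2 read 5.89, 5.46, 4.94 and 5.13 in the IRAK2 knockout, against 6.03, 5.22, 4.71 and 5.19 in wild type (-0.85 log2, SE 0.11, adjusted p 4.14e-04). Abhd5 read 8.92, 7.69, 8.08 and 8.17 in the IRAK2 knockout, against 8.89, 7.49, 7.87 and 8.09 in wild type (-1.01, SE 0.09, adjusted p 6.72e-05). Mgll read 7.92, 7.28, 6.31 and 7.45 in the IRAK2 knockout, against 7.91, 7.0, 5.79 and 6.74 in wild type (-1.15, SE 0.13, adjusted p 2.73e-04). Each stimulated array was below both 0 h arrays for these 4 genes, Mgll and Pnpla2 having their lowest values at 4 h.

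The 3 genes that release cholesterol from lysosomes fell as well. Lipa, the lysosomal acid lipase, read 12.72, 12.29, 11.83 and 12.22 in the IRAK2 knockout, against 12.60, 12.17, 11.52 and 11.78 in wild type (-0.69 log2, SE 0.10, adjusted p 7.58e-04). Npc1, the membrane transporter that takes the freed cholesterol out of the lysosome, read 8.49, 7.98, 7.41 and 7.75 in the IRAK2 knockout, against 8.49, 7.77, 7.39 and 7.73 in wild type (-0.82, SE 0.09, adjusted p 1.84e-04). Both were lowest at 4 h in both genotypes. Npc2, which hands cholesterol to NPC1, fell by 0.31 (adjusted p 0.0361).

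Among 9 genes of fatty acid oxidation and its control 4 fell and 0 rose by limma. Over all 32 members 24 had an unadjusted p under 0.05, as many as were called (5780 of all 10799 genes had one). Cpt1a, which admits long-chain fatty acids to mitochondria, read 9.90, 8.82, 8.76 and 9.60 in the IRAK2 knockout, against 9.91, 8.36, 7.96 and 8.40 in wild type. It fell by 1.26 log2 (SE 0.20, adjusted p 0.00145), less at 8 h in the IRAK2 knockout than at its other times. Ech1, an isomerase for unsaturated fatty acids, read 8.64, 7.96, 7.83 and 7.95 in the IRAK2 knockout, against 8.59, 7.74, 7.18 and 7.89 in wild type (-0.86, SE 0.13, adjusted p 0.00104). Acadm, the medium-chain dehydrogenase, read 8.43, 7.65, 7.98 and 8.21 in the IRAK2 knockout, against 8.38, 7.47, 7.76 and 7.84 in wild type (-0.59, SE 0.09, adjusted p 0.00133). These 3 genes were below 0 h on every stimulated array of both genotypes. Hadhb, the beta subunit of the mitochondrial trifunctional protein, read 10.08, 9.84, 9.55 and 9.69 in the IRAK2 knockout, against 10.10, 9.73, 9.15 and 9.04 in wild type (-0.59, SE 0.13, adjusted p 0.00824). Hadha, the alpha subunit, had a difference of -0.10 (adjusted p 0.379). Acadl, Acadvl, Cpt2 and Pdk4, a brake on pyruvate oxidation, had differences between -0.31 and 0.00 that missed the threshold.

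**Figure D2:**
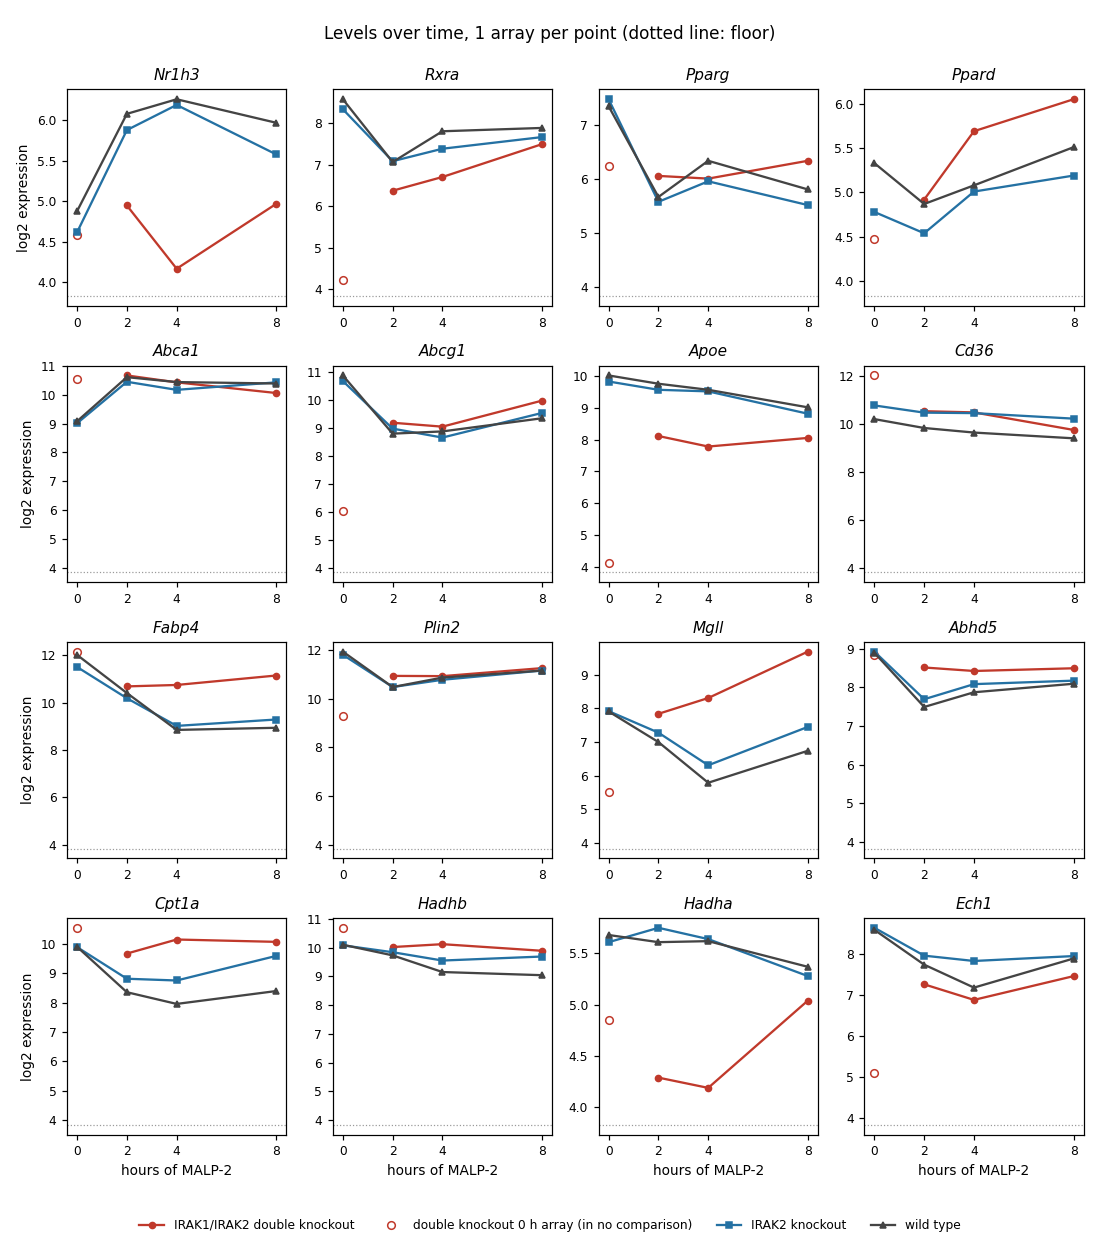
Log2 expression (vertical axis, its range set for each gene) against hours of MALP-2 for 16 lipid genes, 1 array per point, in double-knockout (circles), IRAK2-knockout (squares) and wild-type (triangles) macrophages; the open circle is the double-knockout 0 h array, which is in no comparison, and the dotted line is the floor of 3.83. Abca1 and Nr1h3 rise from 0 h in wild type while Abcg1, Pparg, Fabp4 and Plin2 fall, and Cpt1a, Mgll, Fabp4 and Abhd5 lie above wild type in the stimulated double knockout while Apoe, Nr1h3 and Hadha lie below it.

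Few members differed between 2 and 8 h by the test. Over the 9 stimulated arrays, with genotype as a factor, 5 members were higher at 8 h than at 2 h (16.0% of all genes) and 1 was lower (7.0%). These are 15.6% and 3.12% of the members, so that the share higher is near that of all genes. Abcg1 was higher by 0.63 log2 (SE 0.13, adjusted p 0.00894) and Plin2 by 0.56 (SE 0.12, adjusted p 0.0128), and at 8 h both stayed below 0 h in the IRAK2 knockout and wild type. Rxra was higher by 0.84 (SE 0.15, adjusted p 0.00634), but by 0.24 with its probesets averaged, where it was not called (adjusted p 0.0858). Ppard, which had no called response to MALP-2, was higher by 0.81 (SE 0.14, adjusted p 0.00481), and by 0.41 with its probesets averaged (adjusted p 0.0346). Ppargc1b was called higher (adjusted p 0.00751), from 2 h arrays that were all under the floor, at 3.72 in the double knockout and 3.42 in both the IRAK2 knockout and wild type, so that its difference of 1.17 on the arrays' scale is not a measured size. Cd36 differed by -0.49 (adjusted p 0.0314), but was not called without the 4 h arrays (adjusted p 0.0749) or without the double-knockout arrays (adjusted p 0.0555). Without the double-knockout arrays 9 members were higher and 2, Apoe (-0.75) and Fabp4 (-1.19), were lower. The share of all genes called in that fit was not counted, so these numbers are not read as particular to the members.

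In stimulated double-knockout macrophages several of the genes that fell from 0 h in wild type were more abundant than in stimulated wild type. The fall and this difference use the same 3 stimulated wild-type arrays. A low reading on those arrays counts towards both, so the 2 are not independent. Transcripts of Mgll were 4.29-fold higher over the 3 times, those of Cpt1a 3.33-fold and those of Fabp4 2.76-fold. Apoe was 2.76-fold lower, Nr1h3 2.65-fold lower and Hadha 2.03-fold lower. Abca1, the exporter that was higher after MALP-2 than at 0 h, did not pass the test. Limma on the 9 stimulated arrays, with time as a factor, called 11 of 32 members higher (23.7% of all 10852 genes tested) and 5 lower (17.3%). These are 34.4% and 15.6% of the members, so that the share lower is near that of all genes. The median difference was 0.29 log2 over the members and 0.07 over all genes. Here a p-value reflects how alike the difference was at the 3 times. Without the 4 h arrays 3 members were called higher (Cpt1a, Mgll and Abhd5) and 2 lower (Apoe and Nr1h3), and without the 2 h arrays 11 and 3. Of all genes 1234 were called higher and 877 lower without the 4 h arrays (19.5% in either direction). Neither share of the members then exceeded that of all genes. Without the 2 h arrays 1943 of all genes were higher and 1386 lower (30.5%).

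Nr1h3 read 4.95, 4.17 and 4.97 at 2, 4 and 8 h in the double knockout, against 6.08, 6.26 and 5.97 in wild type. The double-knockout values lay close to the wild-type 0 h array (4.88) or below it, and the difference was -1.40 log2 (SE 0.24, adjusted p 0.00208). Rxra read 6.37, 6.70 and 7.49 in the double knockout and 7.06, 7.80 and 7.88 in wild type, lower at each time though the ranges overlap (-0.73, SE 0.15, adjusted p 0.00602). Ppard read 4.92, 5.69 and 6.05 in the double knockout and 4.87, 5.08 and 5.51 in wild type (0.40, SE 0.14, adjusted p 0.0429). Ppargc1b read 3.72, 4.30 and 5.42 in the double knockout and 3.42, 3.92 and 3.90 in wild type, near or under the floor in wild type. It was called higher (0.73, SE 0.22, adjusted p 0.0287). At 2 h both arrays were under the floor of 3.83, so that this mean difference is not a measured size. Pparg read 6.06, 6.01 and 6.34 in the double knockout and 5.67, 6.34 and 5.81 in wild type, in no fixed order (0.19, adjusted p 0.398).

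Among the efflux genes, Apoe read 8.11, 7.78 and 8.05 in the double knockout and 9.75, 9.56 and 9.01 in wild type. The groups did not overlap, and the difference was -1.46 log2 (SE 0.18, adjusted p 4.94e-04). Abca1 read 10.67, 10.43 and 10.06 in the double knockout and 10.61, 10.44 and 10.39 in wild type (-0.09, SE 0.14, adjusted p 0.631). Abcg1 read 9.18, 9.04 and 9.97 in the double knockout and 8.79, 8.87 and 9.34 in wild type, higher at each time (0.40, SE 0.13, adjusted p 0.0336).

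Of the member genes 2 of 5 for fatty acid uptake, 2 of 4 for storage and lipolysis and 1 of 3 for lysosomal release were called. All were higher in the double knockout, against 23.7% of all genes higher and 17.3% lower. In the separate list of other uptake, storage and lipolysis genes 5 of 18 were higher and 6 lower. Fabp4 read 10.69, 10.75 and 11.15 in the double knockout and 10.41, 8.85 and 8.94 in wild type, so that the gap was narrow at 2 h and wide at 4 and 8 h (1.46 log2, SE 0.31, adjusted p 0.00618). Cd36 read 10.55, 10.50 and 9.77 in the double knockout and 9.85, 9.66 and 9.42 in wild type (0.63, SE 0.14, adjusted p 0.0063). Mgll read 7.84, 8.31 and 9.69 in the double knockout and 7.0, 5.79 and 6.74 in wild type, with a gap of 0.84, 2.52 and 2.95 over the 3 times. Its mean difference, 2.10 (SE 0.34, adjusted p 0.00174), was the largest among the members. Abhd5 read 8.51, 8.42 and 8.49 in the double knockout and 7.49, 7.87 and 8.09 in wild type (0.66, SE 0.14, adjusted p 0.00614), and Lipa 12.35, 12.46 and 12.71 in the double knockout and 12.17, 11.52 and 11.78 in wild type (0.68, SE 0.16, adjusted p 0.00952). For Mgll, Abhd5, Fabp4 and Lipa each double-knockout array was above each wild-type array. Plin2 (0.21, adjusted p 0.196), Pnpla2 (0.12, adjusted p 0.514) and Npc1 (0.40, adjusted p 0.0776) missed the threshold.

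The genes of fatty acid oxidation were split. Cpt1a read 9.68, 10.16 and 10.08 in the double knockout, near the 0 h array of wild type (9.91), and 8.36, 7.96 and 8.40 in stimulated wild type (1.74 log2, SE 0.20, adjusted p 3.28e-04). Acadl, the long-chain dehydrogenase, read 8.04, 8.03 and 7.40 in the double knockout and 7.37, 7.13 and 7.12 in wild type (0.62, SE 0.13, adjusted p 0.00679). The trifunctional protein's subunits were called in opposite directions, although 2 other Hadhb probesets read 0.10 and -0.06. Hadhb read 10.02, 10.12 and 9.89 in the double knockout and 9.73, 9.15 and 9.04 in wild type (0.70, SE 0.15, adjusted p 0.00625). Hadha read 4.29, 4.19 and 5.04 in the double knockout and 5.61, 5.62 and 5.37 in wild type (-1.02, SE 0.23, adjusted p 0.00822). Ech1 read 7.26, 6.88 and 7.46 in the double knockout and 7.74, 7.18 and 7.89 in wild type (-0.40, SE 0.13, adjusted p 0.0411). Over the 32 members, 10 had all 3 double-knockout arrays above the 3 wild-type arrays (23.0% of all genes) and 3 had them below (17.5%).

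**Figure D3:**
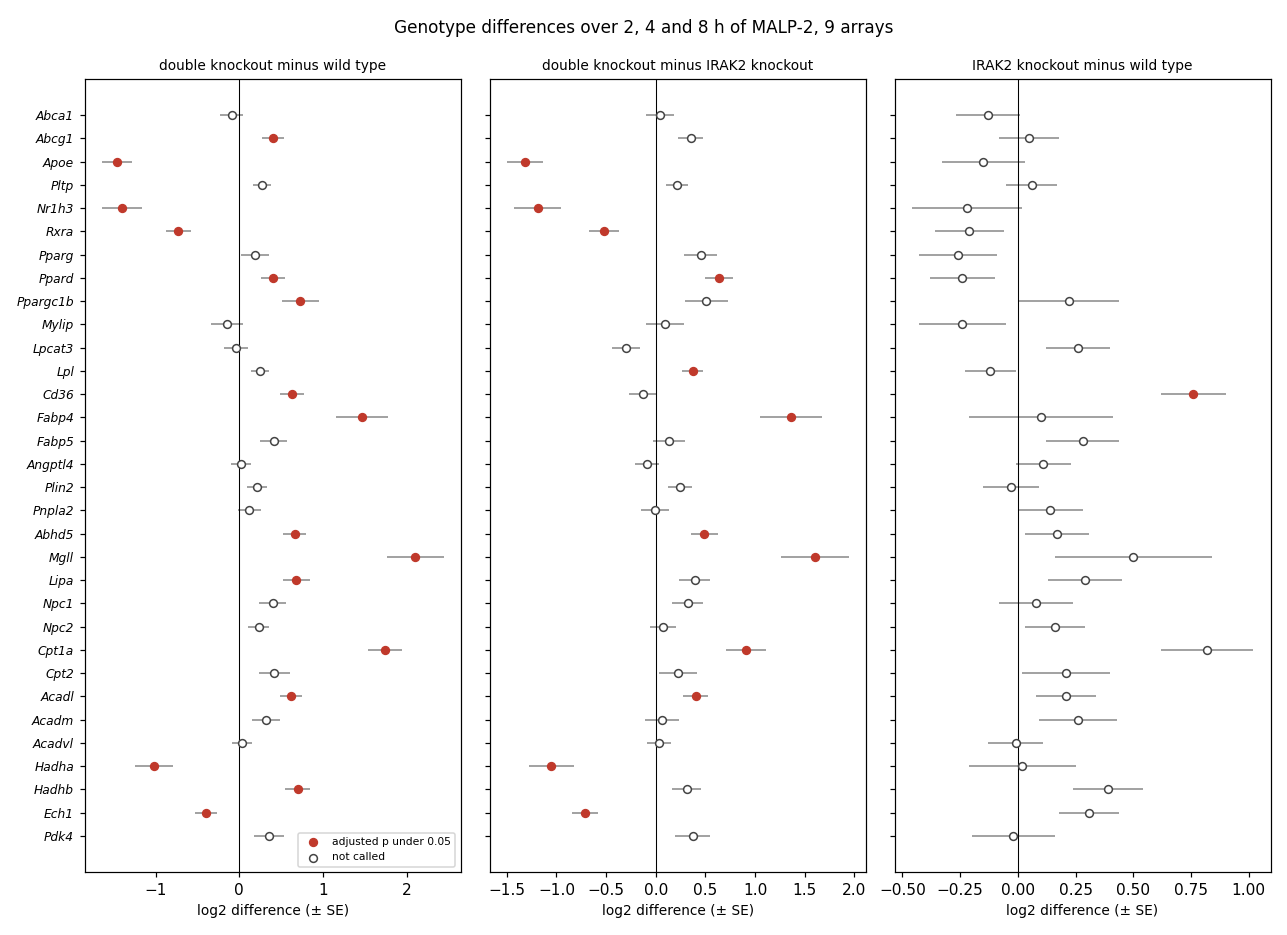
Log2 differences between genotypes over 2, 4 and 8 h of MALP-2, with their SE from limma (9 arrays), for the 32 lipid genes; the 3 panels have their own horizontal scales and filled points have an adjusted p under 0.05. The double knockout has 16 filled points against wild type and 12 against the IRAK2 knockout, and the IRAK2 knockout has 1 against wild type, Cd36.

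Probesets of the same gene did not always give the same answer in this comparison. Of 13 members with more than 1 probeset above the floor, 5 had the same sign in all of them for the double knockout minus wild type and 8 had mixed signs; for the response to MALP-2, 12 had the same sign and 1 mixed. The 3 Cpt1a probesets read 1.74, 1.62 and 1.06 log2 and the 4 Fabp4 probesets 1.46, 0.96, 0.58 and 0.22. The Cd36 probesets read 0.83, 0.63 and -0.34, those of Lipa 0.68, 0.56 and -0.28, and those of Hadhb 0.70, 0.10 and -0.06. The other Hadhb probesets thus gave no difference of the size given above, and with probesets ending in _x_at or _s_at left out Hadhb was not called (0.10, adjusted p 0.568). The second Mgll probeset above the floor, with a mean level of 4.04, read -0.04. Apoe, Nr1h3, Hadha, Ech1 and Ppargc1b have 1 probeset each, so no such check is possible for them. With all probesets of a gene averaged, 6 members were higher (Abcg1, Cd36, Cpt1a, Fabp4, Mgll and Ppargc1b) and 6 lower. The share of all genes called with averaged probesets was not counted. The averaged difference was 0.59 for Mgll, 0.81 for Fabp4, 0.37 for Cd36 and -0.28 for Rxra, smaller than that of the probeset used but called, and 0.71 for Abcg1, larger. It missed the threshold for Abhd5 (0.30, adjusted p 0.0546), Acadl (0.29, adjusted p 0.113), Hadhb (0.25, adjusted p 0.0589), Lipa (0.32, adjusted p 0.226) and Ppard (0.13, adjusted p 0.397). In the response to MALP-2 the averaged difference was -0.35 for Mgll and -0.45 for Pnpla2, both called.

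**Figure D4:**
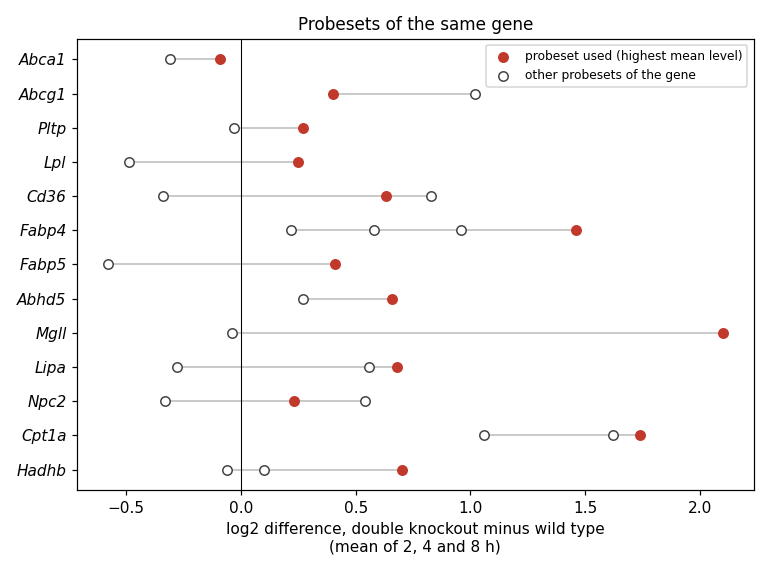
Log2 difference of double-knockout minus wild-type macrophages (mean of 2, 4 and 8 h, horizontal axis) in each probeset above the floor, for the 13 lipid genes that have more than 1; filled points are the probesets used. The points of Cpt1a, Fabp4, Abcg1 and Abhd5 all lie right of 0, those of Abca1 left of it, and those of the other 8 genes on both sides.

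Against the IRAK2 knockout, which asks what the loss of IRAK1 adds, 7 members were higher in the double knockout (22.1% of all genes) and 5 lower (16.7%), or 21.9% and 15.6% of the members. Apoe was lower, at 8.11, 7.78 and 8.05 in the double knockout and 9.56, 9.51 and 8.81 in the IRAK2 knockout (-1.32 log2, SE 0.18, adjusted p 9.27e-04). Nr1h3 differed by -1.19 (adjusted p 0.0051), Hadha, at 5.75, 5.64 and 5.28 in the IRAK2 knockout, by -1.05 (adjusted p 0.00806), Ech1 by -0.71 (adjusted p 0.00395) and Rxra by -0.52 (adjusted p 0.027). Mgll, at 7.28, 6.31 and 7.45 in the IRAK2 knockout, was higher in the double knockout by 1.60 (SE 0.34, adjusted p 0.00674), Fabp4 by 1.36 (adjusted p 0.00924), Cpt1a by 0.91 (adjusted p 0.00676) and Ppard by 0.64 (adjusted p 0.00682). Abhd5 (0.49, adjusted p 0.0233), Acadl (0.40, adjusted p 0.0423) and Lpl (0.37, adjusted p 0.0249) were higher by less, and Lpl had 0.05 with its probesets averaged. So averaged, Rxra (-0.13), Ppard (0.26), Abhd5 (0.17) and Acadl (0.20) were not called either, and Mgll (0.46) and Fabp4 (0.84) were. Cd36, by contrast, had a difference of -0.13 (adjusted p 0.493). Without the 4 h arrays 1 member was called higher, Pparg (0.65), and 2 lower, Apoe and Nr1h3, with 14.5% of all genes called in either direction. This comparison and that with wild type share the 3 double-knockout arrays, and both comparisons with wild type share its 3 arrays.

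Loss of IRAK2 alone gave 1 called lipid gene, Cd36. At 0 h 0 of 32 members were at least 2-fold higher or lower in the IRAK2 knockout, as single arrays without a test (0.141% and 0.317% of all genes). After MALP-2 limma called 1 member higher (0.415% of all genes) and 0 lower (0.35%). At an unadjusted p under 0.05 were 4 of 32 members, near the share of all genes (1478 of 10852). The 1 member called was Cd36, at 10.49, 10.47 and 10.24 in the IRAK2 knockout, against 9.85, 9.66 and 9.42 in wild type, without overlap (0.76 log2, 1.69-fold, SE 0.14, adjusted p 0.0498). It was also higher at 0 h, at 10.79 in the IRAK2 knockout, against 10.22 in wild type, and its other probesets read 0.78 and 0.61. The call was lost when any 1 of the 3 times was left out, when arrays were centred on their medians, and without probesets ending in _x_at or _s_at, with adjusted p from 0.00677 to 0.522 over all alternatives. Cpt1a read 8.82, 8.76 and 9.60 in the IRAK2 knockout, between the double knockout and wild type at each time, with a difference from wild type of 0.82 (SE 0.20, adjusted p 0.119). At 8 h it was the 1 member at least 2-fold higher (0.686% of all genes), and 0 members were as far lower (1.21%). Cd36 and Cpt1a were the 2 members whose 3 stimulated arrays lay wholly above wild type (8.07% of all genes), and 0 lay wholly below (6.08%). In a fit of only these 2 genotypes Cd36 (adjusted p 0.00677), Cpt1a (0.0205) and Mgll (0.50 log2, 0.0454) were called higher. How many of all genes that fit called was not counted. Mgll, Pparg, Lpcat3 and Pdk4 lie on chromosome 6, as does Irak2.

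Whether a genotype difference changed with time was tested with a slope on log2 time. For the double knockout against wild type 0 members were called in either direction (0.0276% of all genes higher, 0.111% lower). An unadjusted p under 0.05 was found for 8 members and for 1625 of all 10852 genes. Mgll, whose difference grew by 1.06 log2 with each doubling of the time (SE 0.20, adjusted p 0.108), and Fabp4, with 0.97 (SE 0.20, adjusted p 0.123), came nearest. With a variance that depends on level (eBayes with trend) 3 members were called higher, Mgll (adjusted p 0.0425), Fabp4 (0.0362) and Fabp5 (0.38 log2, 0.0456). How many of all genes were then called was not counted. For the IRAK2 knockout 0 members were called (0.0% of all genes higher, 0.00921% lower). Its slope had an unadjusted p under 0.05 for 2 members, near the share of all genes (537 of 10852). The mean response to MALP-2 did not pass as different between IRAK2 knockout and wild type for any member or any other gene in limma (0.0% of all genes in either direction). At an unadjusted p under 0.05 were 2 members, Cpt1a and Fabp4, near the share of all genes (551 of 10799). Cpt1a responded by -0.84 log2 on average in the IRAK2 knockout and by -1.68 in wild type, a difference of 0.84 (SE 0.28, adjusted p 0.948), and Fabp4 by -2.01 in the IRAK2 knockout and by -2.62 in wild type (0.61, SE 0.25, adjusted p 0.948).

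Other genes of the same pathways, 76 in 3 lists, were counted beside the members. After MALP-2, 25 of 53 tested were lower and 8 higher, 47.2% and 15.1% against 28.2% and 18.9% of all genes, with a median of -0.22 log2. In fatty acid oxidation 13 of 22 were lower and 0 higher, among them Acaa2, the last enzyme of the mitochondrial cycle (-1.14, SE 0.10, adjusted p 7.26e-05). In efflux and LXR genes 7 of 14 were lower and 3 higher, and in uptake, storage and lipolysis 5 of 17 were lower and 5 higher. The 6 called genes with the largest differences also held Lpin1, a phosphatidate phosphatase (-2.38), Cyp27a1, which makes 27-hydroxycholesterol (-1.69), and Nceh1, a cholesteryl ester hydrolase (-1.62). On the upper side stood Fabp3, another fatty acid binding protein (2.01), and Ch25h, which makes 25-hydroxycholesterol (1.73). In the double knockout against wild type 16 of 55 were higher and 11 lower, 29.1% and 20.0% against 23.7% and 17.3% of all genes. By list, 5 of 15 efflux and LXR genes were higher and 2 lower, 5 of 18 genes of uptake, storage and lipolysis were higher and 6 lower (median -0.12 log2), and 6 of 22 oxidation genes were higher and 3 lower. Fabp3 read 6.61, 7.02 and 7.17 in the double knockout and 7.98, 8.42 and 8.81 in wild type (-1.47, SE 0.13, adjusted p 1.03e-04), and Ch25h 5.46, 4.62 and 4.19 in the double knockout and 5.93, 5.90 and 6.53 in wild type (-1.37, adjusted p 0.00746). Etfb, of the electron transfer flavoprotein that takes electrons from acyl-CoA dehydrogenases, was lower (-1.25, adjusted p 3.87e-04), as was Dgat2, which makes triglyceride (-1.13, adjusted p 0.00758). Acsl3, an acyl-CoA synthetase of lipid droplets (1.19, adjusted p 3.93e-04), and the peroxisomal enzyme gene Hsd17b4 (1.03, adjusted p 6.51e-04) were higher. Against the IRAK2 knockout 10 were higher and 9 lower in the double knockout, 18.2% and 16.4% against 22.1% and 16.7% of all genes, so neither share exceeds that of all genes. Among the lower were Fabp3 (-1.39), Etfb (-1.29) and Hilpda, an inhibitor of droplet lipolysis (-1.07). Eci1, an isomerase of fatty acid oxidation (-0.79), and Apoc2, a cofactor of lipoprotein lipase (-0.78), were also lower, and Lpin1 was higher (0.83). In the IRAK2 knockout against wild type 1 of 55 was higher, Acsl3, at 6.08, 7.59 and 7.62 in the IRAK2 knockout, against 5.18, 6.62 and 6.37 in wild type (1.04, SE 0.14, adjusted p 0.0186), and 0 were lower.

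**Figure D5:**
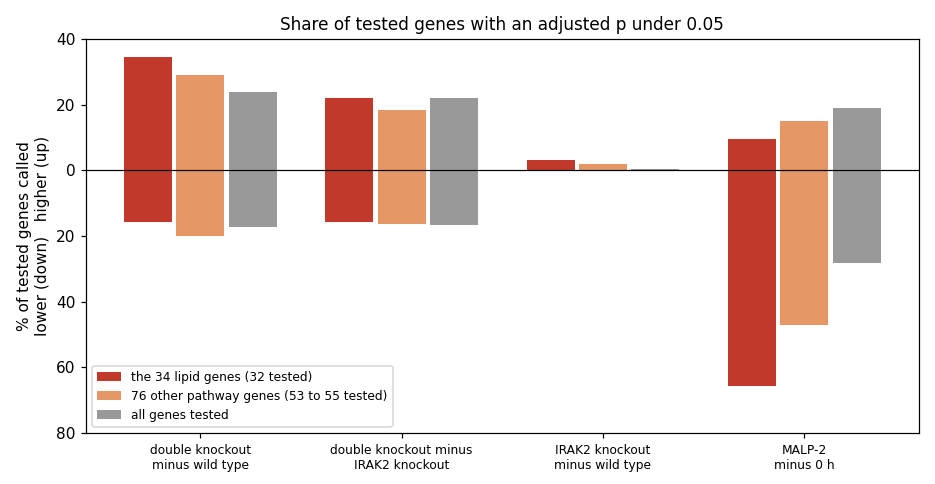
Percent of tested genes called by limma (adjusted p under 0.05), higher above the line and lower below it, for the 34 lipid genes (32 tested), 76 other genes of the same pathways (53 to 55 tested) and all genes tested. In the double knockout against wild type 34.4% of the lipid genes are higher, against 23.7% of all genes, and after MALP-2 65.6% of them are lower, against 28.2% of all genes.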

How the data were processed

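The deposited table holds log2 expression values for 45101 probesets on 12 Affymetrix arrays; per the submitters' processing notes the authors made them with RMA, in a version the sources used here do not state, and per the labels' protocols RNA was amplified and labelled with the NuGEN Ovation system. RMA makes the arrays' distributions equal, so a change in total RNA per cell cannot be seen. Probesets were named through the platform annotation: 34958 carry 1 symbol, 932 several (not used) and 9211 none, and 34754 symbols were updated through gene identifiers. Arrays give no read depth, and their number, 1 per group, limits the precision.

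Differences were fitted with limma 3.58.1 in R 4.3.3 (lmFit and eBayes). Genes entered a fit when their mean over its arrays reached the floor, 3.83, and p-values were Benjamini-Hochberg adjusted over all of them, with calls at an adjusted p under 0.05. Genotype differences used the 9 stimulated arrays with time as a factor (4 residual degrees of freedom), slopes the same arrays (2), and the response to MALP-2 the 8 arrays of IRAK2 knockout and wild type with genotype as a factor (3). A difference is measured only where the higher level exceeds the floor. The fits, but not the filter, were tested on simulated data with independent noise. Of 100 genes shifted by 1 log2, 85 were called for the double knockout against wild type. Of 100 with a slope changed by 1 log2 per doubling of the time, 76 were called. For the response to MALP-2 96 of 100 were called, and 34 of 100 for its difference between IRAK2 knockout and wild type. No column was left unmapped, and present or absent calls are not analysed here. Nothing shows separate cultures or mice behind the times, so p-values measure the spread between these arrays.

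The 34 genes, the gene lists and the tests were chosen with earlier results of these data known. Values on every array are given for members called in a genotype comparison or in the response to MALP-2 with a difference of at least 0.5 log2, and for the receptors. Of the other pathway genes up to 6 called ones with the largest difference per comparison are named. Alternatives changed the choice of probeset, the filter, the scaling, the variance model and the arrays in the fit.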

Additional observations from a re-analysis of the deposited data

Results flagged for a closer look

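The array labelled double knockout 0 h, used in no comparison, read at least 2-fold above both other 0 h arrays for 3 of the 32 lipid genes. Pdk4 read 7.80 there, against 4.51 in the IRAK2 knockout and 4.50 in wild type, and 4.36 to 4.76 on the stimulated double-knockout arrays. Cd36 read 12.04 there, against 10.79 in the IRAK2 knockout and 10.22 in wild type, and Abca1 read 10.53, against 9.01 in the IRAK2 knockout and 9.08 in wild type. On the same array 12 of the 32 genes were at least 2-fold below both other 0 h arrays, among them Apoe at 4.13, against 9.82 in the IRAK2 knockout and 10.01 in wild type. The share of all genes was not counted in either direction, so neither count is read as particular to the lipid genes. This array also had the lowest correlations with the others, 0.764 to 0.804, and the smallest gap between the 5′ and 3′ actin probesets, with a 5′ minus 3′ value of -2.54. Its Irak1 level of 10.84, against 8.11 to 8.59 on the other 11 arrays, sets it apart from the arrays of its own genotype too, and Cd68 read 6.40, against 11.48 to 11.60 on the stimulated double-knockout arrays. Its values are not read as an effect of genotype.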

How the results depend on the processing

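No paired analysis was possible because each group holds 1 array and so no replicate number; the genotype fits match arrays by time through the time factor. No called difference of a member changed sign under any alternative. For the double knockout against wild type 4 of 16 called members (Apoe, Cpt1a, Mgll and Nr1h3) were called under every alternative in which they were tested, for the double knockout against the IRAK2 knockout 2 of 12 (Apoe and Nr1h3), for the response to MALP-2 18 of 24 (lost in at least 1 alternative: Fabp5, Lpcat3, Mylip, Npc2, Pltp and Ppargc1b), for 8 h against 2 h 4 of 6 (lost: Cd36 and Rxra), and for the IRAK2 knockout against wild type 0 of 1.

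The number of members called moved by over 1.5 times as follows. With all probesets of a gene averaged, 6 were higher in the double knockout against wild type, 4 against the IRAK2 knockout, and 2 were lower at 8 h than at 2 h. Without the 4 h arrays 3 were higher and 2 lower in the double knockout against wild type, 1 higher and 2 lower against the IRAK2 knockout, 0 higher in the IRAK2 knockout and 0 lower at 8 h. Of all genes 19.5%, 14.5% and 0.0555% were then called in these 3 genotype comparisons, in either direction. Without the 2 h arrays 3 were lower in the double knockout and 0 higher in the IRAK2 knockout, and without the 8 h arrays 0 were higher in the IRAK2 knockout. Without the 2 h arrays 30.5% of all genes were called in the double knockout and 0.101% in the IRAK2 knockout. Without the 8 h arrays 0.13% were called in the IRAK2 knockout. In the IRAK2 knockout against wild type 0 were higher without probesets ending in _x_at or _s_at or with arrays centred on their medians, and 3 in a fit of the 2 genotypes alone. With eBayes trend 3 had a rising slope in the double knockout and 2 were lower at 8 h. Leaving out probesets ending in _x_at or _s_at gave 2 lower at 8 h, and leaving out the double-knockout arrays 9 higher and 2 lower. For the other alternatives, and for 8 h against 2 h, the share of all genes called was not counted. Those numbers are therefore not read as particular to the members. Fits that leave out a time have fewer arrays. Otherwise the cause was not tested. The signal near the floor limits Ppargc1b, Angptl4 and Pdk4.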
